A study of Rattus norvegicus with 12 samples.

Results

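Genes typical of liver, most of them encoding proteins of blood plasma, were followed in the rat mammary gland and taken by symbol: Alb, Ttr, Tf, Apoa1, Apoa2, Fga, Fgb, Hrg, Serpina1 and Cyp2e1. They were 10 genes, of 26456 symbols on the array, were each measured by 1 probe, 10 of the 30367 gene probes. RNA of the whole lumbar mammary gland, the 4th and 5th pair with their fat pad and without visible lymph nodes, was measured in female Wistar rats, 1 array per rat. NP rats came from dams fed a diet with 17.0% protein during pregnancy and LP rats from dams fed 8.8% protein, and in both diet groups the dams in lactation and the weaned pups had standard chow. Glands were taken at day 21 or day 28 of life, so that there were 4 groups of 3 rats: NP and LP at day 21, and NP and LP at day 28. Replicates carry the number and letter of the labels (4a, 5a and 6a for NP at day 21, 4a, 6a and 7c for LP at day 21, 4f, 5f and 6f for NP at day 28, and 4f, 6f and 7f for LP at day 28). Levels are log2 signals relative to the 75th percentile of the array's gene spots, so that 0 is that percentile and each unit is a factor of 2.

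Hepatocytes make most plasma proteins under a set of shared transcription factors, among them HNF4 and C/EBP proteins, and the genes are usually switched on as a group. Albumin is the main protein of plasma, transthyretin (Ttr) carries thyroid hormone and retinol-binding protein, and transferrin (Tf) carries iron. Apoa1 and Apoa2 encode the main proteins of high-density lipoprotein, Fga and Fgb encode chains of fibrinogen, the clot-forming protein, Hrg encodes histidine-rich glycoprotein, and Serpina1 encodes the inhibitor of neutrophil elastase. Cyp2e1 is an ethanol- and ketone-oxidising enzyme of liver that fat cells also express. Tf differs from the others in that the mammary epithelium itself makes transferrin for milk.

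On the build rn4, the array's annotation places the probes at chr14:19126980-19127039 for Alb, chr18:12413621-12413680 for Ttr, chr8:108217778-108217837 for Tf, chr13:87115432-87115491 for Apoa2, chr2:174751982-174752041 for Fga, chr2:174768230-174768289 for Fgb, chr11:80248652-80248711 for Hrg and chr1:200927736-200927795 for Cyp2e1. The probe of Serpina1 is placed across an intron, at chr6:127999839-128000771, and that of Apoa1 has no position. Whether the others lie in coding sequence or in untranslated parts is not given in the sources used here.

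All day 21 arrays were on 1 slide and all day 28 arrays on the other, so day and slide cannot be told apart. On both slides the NP arrays were in row 1 with a single LP array, LP 4a or LP 4f. The other LP arrays were in row 2, so slide row and diet are largely confounded. Of the gene spots, between 74.76% and 79.63% per array were well above background, and none was saturated. All 10 members passed the filter on dim probes, for which a minimum of 3 arrays, of the 12, had to hold a signal well above background. Alb, Tf, Fgb, Serpina1 and Cyp2e1 were well above background on all 12 arrays, Ttr and Apoa1 on 11, Hrg on 8, Fga on 6 and Apoa2 on 5. In the glands, the markers of mammary luminal epithelium (8 of 8 genes) and of fat cells (10 of 10) passed that mark on every one of the 12 arrays. Of the 28 hepatocyte enzymes and transporters looked for, 24 were well above background on at least 1 array and 11 on all 12, while Cps1, the first enzyme of the urea cycle, Tat, a tyrosine-degrading enzyme, Cyp7a1, the rate-limiting enzyme of bile acid synthesis, and Ugt2b1, a glucuronidating enzyme, were not on any. In whole-tissue RNA, fewer cells of a type and less RNA per cell cannot be told apart.

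**Figure D1:**
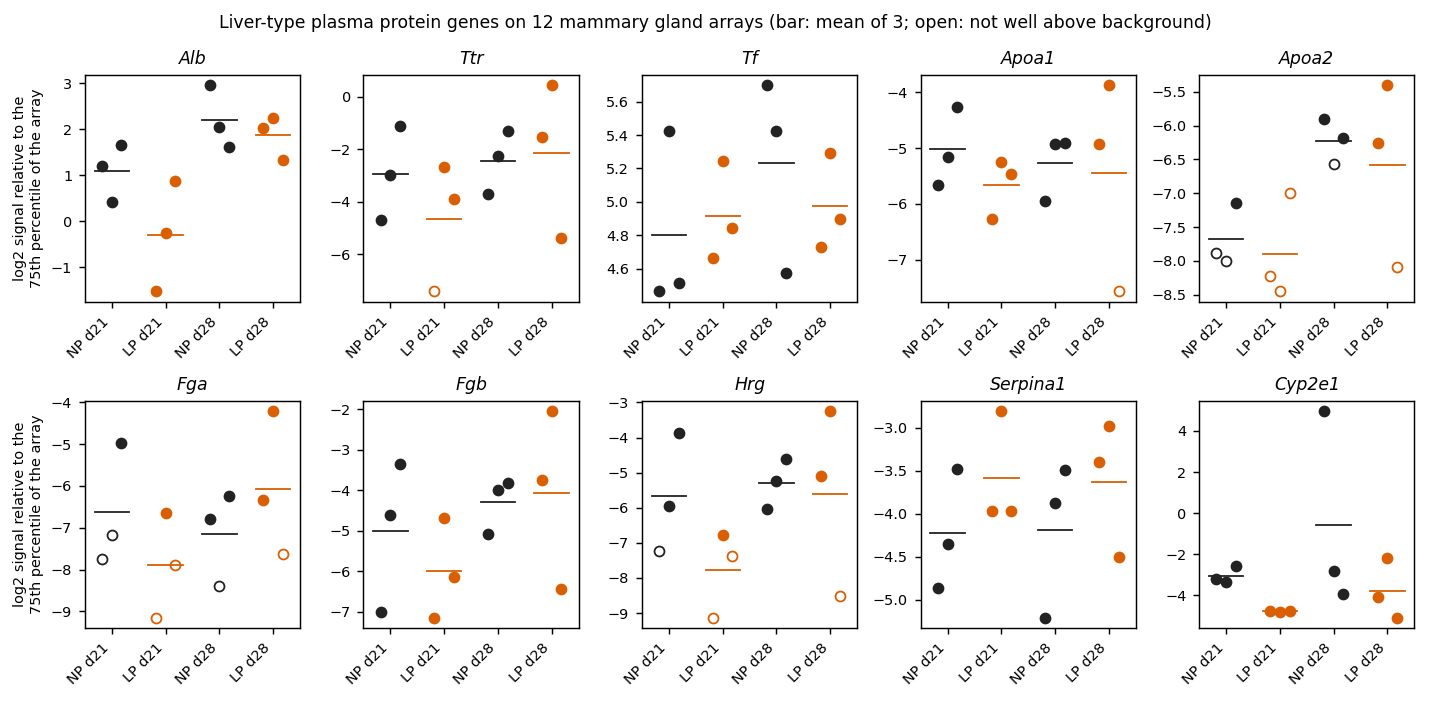
Log2 signal of the 10 genes on the 12 arrays (y axis, relative to the 75th percentile of the array), 1 panel a gene with its own y scale. Points are rats, grouped by diet and day on the x axis in replicate order, bars are means of 3, black is NP and orange is LP, and open points were not well above background. The scatter within a group is wide in most panels, and the NP rat 4f at day 28 stands at 4.96 for Cyp2e1, far above all other rats.

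Ttr, Apoa1, Fga, Fgb and Hrg varied together from rat to rat on both days, with Fga in the NP rat 5f at day 28, where it was the lowest of its day, as an exception. Ttr had log2 levels of -4.71, -2.97 and -1.12 in NP rats and -7.41, -2.69 and -3.90 in LP rats at day 21. At day 28 its levels were -3.72, -2.26 and -1.31 in NP rats and -1.52, 0.46 and -5.39 in LP rats. The NP rat 6a was highest and the LP rat 4a lowest at day 21, and the LP rat 6f was highest and the LP rat 7f lowest at day 28, with diet groups that overlapped on both days. On the array of the LP rat 4a at day 21, Ttr was not well above background. The distance between the lowest and the highest rat of a day was 78.28-fold at day 21 and 57.37-fold at day 28. The fold at day 21 is uncertain, since the lowest rat was not well above background. With normexp, a model-based background correction of the raw spot signals, Ttr lay between -4.82 and -1.08 at day 21.

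Fgb, the fibrinogen beta chain, had levels of -7.01, -4.62 and -3.35 in NP rats and -7.14, -4.69 and -6.13 in LP rats at day 21. At day 28, the Fgb levels were -5.09, -3.99 and -3.82 in NP rats and -3.75, -2.05 and -6.44 in LP rats. The same 4 rats were at the ends of the order as for Ttr, and the diet groups overlapped. Hrg, which binds heparin and plasminogen, had levels of -7.24, -5.94 and -3.86 in NP rats and -9.13, -6.78 and -7.37 in LP rats at day 21, and was well above background in 2 NP rats and 1 LP rat. At day 28, the Hrg levels were -6.02, -5.24 and -4.60 in NP rats and -5.10, -3.25 and -8.50 in LP rats, the last of them not well above background. Here too the ends of the order were NP 6a and LP 4a at day 21 and LP 6f and LP 7f at day 28.

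Fga, the fibrinogen alpha chain and neighbour of Fgb on chromosome 2, had levels of -7.75, -7.18 and -4.97 in NP rats and -9.15, -6.66 and -7.88 in LP rats at day 21. At day 28 they were -6.79, -8.40 and -6.25 in NP rats and -6.34, -4.21 and -7.64 in LP rats, with NP 5f and not LP 7f as the lowest. Fga was well above background in 1 rat of each diet at day 21 and in 2 of each at day 28. Apoa1 was not well above background in LP 7f. Its levels lay between -6.27 and -4.26 at day 21, a 4.04-fold distance, and between -7.57 and -3.87 at day 28, a 13.01-fold distance. The fold at day 28 is uncertain, since its low end is that of LP 7f. With the normexp background, the day 28 levels of Apoa1 lay between -4.45 and -3.45. NP 6a and LP 6f were again the highest rats for Apoa1, and LP 4a and LP 7f the lowest.

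Counted over the 10 genes, NP 6a was the highest rat of day 21 for 7 genes and LP 4a the lowest for 6, while at day 28 LP 6f was the highest for 7 and LP 7f the lowest for 7. Of all tested probes, 18.02% were highest on the array of NP 6a and 10.53% lowest on that of LP 4a at day 21. At day 28, 12.22% were highest on the array of LP 6f and 25.41% lowest on that of LP 7f. Set against the mean of the day, the median of the 10 genes was 1.29 on the array of NP 6a, -1.29 on that of LP 4a, 1.25 on that of LP 6f and -1.95 on that of LP 7f. On the array of LP 7f, Apoa1, Apoa2, Fga and Hrg were not well above background, and its place depended on the background correction. With the normexp background, NP 4f was the lowest rat of day 28 for Apoa1, Fgb and Hrg, at -4.45, -4.03 and -4.46. LP 7f was then at -4.13, -3.95 and -4.33, and stayed the lowest for Alb, Ttr and Cyp2e1.

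**Figure D2:**
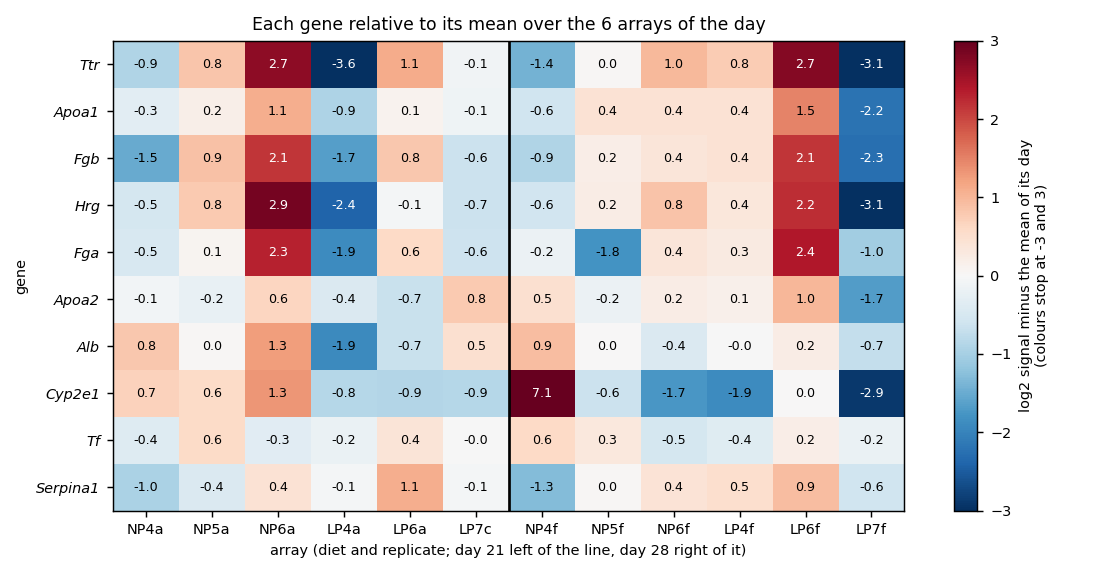
Each gene's log2 signal minus its mean over the 6 arrays of the day, written in the cells and shown by colour, with genes as rows and arrays as columns. The upper rows, Ttr, Apoa1, Fgb, Hrg and Fga, share red cells on NP 6a and LP 6f and blue cells on LP 4a and LP 7f, while Tf changes little and Cyp2e1 has its highest cell on NP 4f.

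Pearson's r over the 12 arrays was computed for all 45 pairs of the 10 genes, with two-sided permutation tests adjusted over the pairs. Among the 10 pairs of Ttr, Apoa1, Fga, Fgb and Hrg, r lay between 0.67 and 0.96 and Spearman's rho between 0.73 and 0.98. Of these 10 pairs, 9 had an adjusted permutation p under 0.05 for r and 10 for rho. Apoa1 with Fga was the pair without it, with r = 0.67 and an adjusted permutation p of 0.0577. The highest was Ttr with Hrg, at r = 0.96 and rho = 0.97 with adjusted permutation p = 0.00015 for each, resting on the smallest p of 1e-05 that the permutations can give. Within the 6 arrays of day 21, r of the 10 pairs lay between 0.90 and 0.99, and within those of day 28 between 0.60 and 0.99. Without the 2 arrays farthest from the median of the first gene of each pair, r was between 0.62 and 0.95. These 5 genes were grouped after their values were seen, and the points of every pair are the same 12 arrays.

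**Figure D3:**
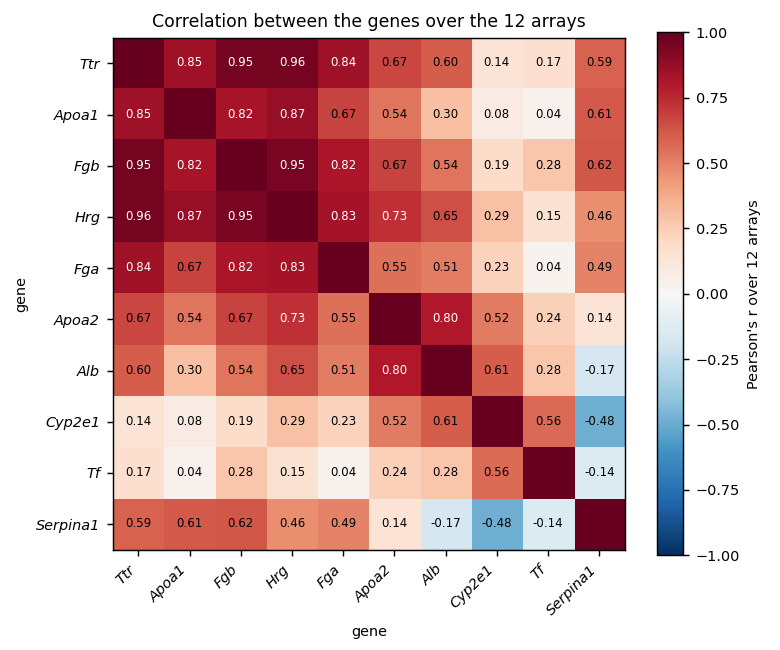
Pearson's r between each pair of the 10 genes over the 12 arrays, with genes on both axes, r written in the cells and shown by colour from -1 to 1. The block of Ttr, Apoa1, Fgb, Hrg and Fga holds values from 0.67 to 0.96, and Cyp2e1, Tf and Serpina1 have lower values with these 5 genes.

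Promoters of 3 of the 5 genes are shown beside those of Alb and Tf, to compare the letters of genes that went together with those of genes that did so less, from RefSeq on the build GRCr8, 250 bases before the start of the gene and 50 after it. Promoters were listed for 7 of the 10 members, and for Fga the first of 2 is shown. Capitals mark matches, on either strand, to TTGCNNAA, a site of C/EBP proteins, and to TATAAA, the TATA box.
Ttr (chr18:12218508-12218807, plus strand): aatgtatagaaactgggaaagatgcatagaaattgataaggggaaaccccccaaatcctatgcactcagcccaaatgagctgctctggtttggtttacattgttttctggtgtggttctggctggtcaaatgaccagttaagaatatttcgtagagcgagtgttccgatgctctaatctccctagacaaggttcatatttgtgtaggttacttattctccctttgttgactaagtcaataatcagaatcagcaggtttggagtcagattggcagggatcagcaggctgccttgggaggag
Fga (chr2:170671919-170672218, plus strand): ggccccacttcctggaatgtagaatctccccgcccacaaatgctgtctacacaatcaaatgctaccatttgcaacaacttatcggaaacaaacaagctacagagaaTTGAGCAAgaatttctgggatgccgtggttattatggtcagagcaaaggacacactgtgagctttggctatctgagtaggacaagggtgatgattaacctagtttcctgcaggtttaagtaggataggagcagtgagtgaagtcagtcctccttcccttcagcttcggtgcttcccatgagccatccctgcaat
Fgb (chr2:170700826-170701125, minus strand): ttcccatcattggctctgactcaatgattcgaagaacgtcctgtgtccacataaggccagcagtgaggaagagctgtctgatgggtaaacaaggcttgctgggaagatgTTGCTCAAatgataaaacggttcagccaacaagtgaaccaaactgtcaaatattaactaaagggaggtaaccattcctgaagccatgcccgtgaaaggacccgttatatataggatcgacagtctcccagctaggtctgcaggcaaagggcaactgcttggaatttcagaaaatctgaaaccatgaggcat
Alb (chr14:17906930-17907229, minus strand): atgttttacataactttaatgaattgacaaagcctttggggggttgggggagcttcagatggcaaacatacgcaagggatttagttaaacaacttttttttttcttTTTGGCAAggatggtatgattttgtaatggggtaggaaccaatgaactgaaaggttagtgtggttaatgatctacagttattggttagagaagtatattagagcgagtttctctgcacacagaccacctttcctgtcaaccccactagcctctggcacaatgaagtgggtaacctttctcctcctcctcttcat
Tf (chr8:112695327-112695626, minus strand): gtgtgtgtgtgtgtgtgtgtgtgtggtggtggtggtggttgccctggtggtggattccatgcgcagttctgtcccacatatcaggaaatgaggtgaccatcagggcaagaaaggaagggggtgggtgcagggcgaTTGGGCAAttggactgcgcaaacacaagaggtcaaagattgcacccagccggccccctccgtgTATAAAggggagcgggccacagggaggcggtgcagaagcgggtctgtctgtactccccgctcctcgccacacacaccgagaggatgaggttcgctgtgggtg

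TTGCNNAA was found in the promoters of Alb, Cyp2e1, Fga, Fgb and Tf, 5 of the 7 members, and in 10.6% of the 33469 promoters in the table. TATAAA was found in those of Cyp2e1 and Tf and in 14.22% of all, and CCAAT, which is not marked and shares letters with TTGCNNAA in Tf, in 5 of 7 and in 37.49% of all. CAAAGT, a short site of HNF4, was found in none of the 7 and in 14.8% of all. The promoter of Ttr, whose levels went with those of Fgb, held none of the marked letters.

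The other members, Alb, Apoa2, Cyp2e1, Tf and Serpina1, went with the 5 genes to different degrees. For Alb, the levels at day 21 were 1.19, 0.42 and 1.65 in NP rats and -1.53, -0.27 and 0.87 in LP rats, with LP 4a and NP 6a again at the ends. At day 28 they were 2.96, 2.05 and 1.61 in NP rats and 2.03, 2.25 and 1.32 in LP rats, and the highest was NP 4f, the rat with the second lowest levels of Ttr, Fgb and Hrg on that day. The distance between rats was 9.05-fold at day 21 and 3.12-fold at day 28.

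Of the 9 correlations with Alb over the 12 arrays, 1 had an adjusted p under 0.05 in a two-sided permutation test, that of Apoa2, with r = 0.80 (adjusted permutation p = 0.00864) and rho = 0.86 (adjusted permutation p = 0.00585). Within day 21, r of Apoa2 with Alb was 0.71, and within day 28 it was 0.69, with adjusted p of 0.205 and 0.454 in exact permutation tests. Without the 2 arrays farthest from the median of Alb, LP 4a and LP 6a at day 21, it was 0.78 with an adjusted permutation p of 0.0621. Hrg had r = 0.65 with Alb, rho = 0.64 and adjusted permutation p of 0.096 and 0.0856, and without those arrays its r was 0.43. Ttr had r = 0.60 and rho = 0.56, with adjusted permutation p of 0.116 and 0.115, and without those arrays its r was 0.35.

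Apoa2 was found on the fewest arrays of the 10 genes, and was well above background in 1 NP rat at day 21, in no LP rat at day 21, and in 2 rats of each diet at day 28. Its levels were between -8.01 and -7.15 in NP rats and between -8.45 and -7.00 in LP rats at day 21. At day 28 they were between -6.57 and -5.91 in NP rats and between -8.09 and -5.40 in LP rats, with LP 6f highest and LP 7f lowest. Its r with the 5 genes was between 0.54 and 0.73 over the 12 arrays, and with Hrg, at 0.73, the adjusted permutation p over the 45 pairs was 0.0357 for r and 0.0551 for rho. This r was higher than that of Apoa1 with Fga. Within day 28, r of Apoa2 with the 5 genes was between 0.68 and 0.91, and within day 21 between 0.23 and 0.48.

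Cyp2e1 had a level of 4.96 in the NP rat 4f at day 28 and levels between -5.08 and -2.18 in all other 11 rats. The probe has 10 spots, and on this array all 10 read between 59307.4 and 70444.6 in linear signal. The mean signal of the probe on the other 11 arrays lay between 61.6 and 453.4. The next highest array was 140.9-fold lower, and this gap to the next array was the second largest among the 23211 tested probes. The comparisons of Cyp2e1 are given with and without this rat.

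Tf had the least spread of the 10, with levels between 4.46 and 5.70, and Serpina1 lay between -5.21 and -2.81. The r of Tf with the 5 genes was between 0.04 and 0.28, with a lowest adjusted permutation p of 0.525. Serpina1 had r between 0.46 and 0.62 with them and rho between 0.57 and 0.73, and its lowest adjusted permutation p was 0.0796 for r and 0.0349 for rho. Its highest rat at day 21 was LP 6a, and at day 28 LP 6f. The correlation of Cyp2e1 with Alb over 12 arrays was r = 0.61 and rho = 0.71. Adjusted over the 45 pairs, the permutation p was 0.126 for r and 0.0375 for rho, and adjusted over the 9 correlations with Alb it was 0.13 and 0.0526. Within day 21, r was 0.72. Within day 28, r was 0.92 and rho 0.94, with p of 0.0375 and 0.15 adjusted over the 9 in exact permutation tests, and NP 4f was the highest rat for both genes.

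The spread between rats of 1 group was wider for these genes than for most. The SD within groups, pooled over the 4 groups of 3, was 2.21 for Ttr, 1.73 for Hrg, 1.61 for Fgb, 1.41 for Fga and 1.09 for Apoa1, against a median of 0.23 over all tested probes. For Ttr, 99.71% of tested probes had a smaller SD, and for Tf, with an SD of 0.45, 80.75% did. The spread of dim genes depended on the background correction. Fga and Hrg were well above background on only 6 and 8 arrays. With the normexp background, Fga lay between -5.11 and -3.61, against -9.15 and -4.21 here. Hrg then lay between -5.13 and -2.95, against -9.13 and -3.25.

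LP and NP glands were compared at day 21 to ask whether the diet of the dam in pregnancy changed these genes at weaning. Most members had lower means in LP glands: 8 of 10, with a median difference of -1.13 on the log2 scale, against a median of 0.01 and 47.83% lower over all 23211 tested probes. No member passed an adjusted p of 0.05 in limma (0 of 10, and 0% of all tested probes), and 1 member, Alb, had an unadjusted p under 0.05, against 4.36% of all tested probes. The median was -0.34 without NP 6a, -0.39 without LP 4a, -0.33 after normexp, a model-based background correction of the raw spot signals, and -0.66 when rats of 1 number were blocked. The Alb mean was 1.09 ± 0.62 (SD, n = 3) in the NP group. In the LP group it was -0.31 (SD 1.2, n = 3), which was 2.64-fold lower. This gave -1.40 on the log2 scale (SE 0.59), where limma's unadjusted p was 0.0385 and its adjusted p was 0.861. The highest LP rat was above the lowest NP rat, so the groups overlapped. Without the LP rat 4a, the difference of Alb was -0.79, and the count of members with an unadjusted p under 0.05 was 0 without NP 4a, NP 6a, LP 4a or LP 6a, each left out alone, where between 2.08% and 8.46% of tested probes had one.

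Cyp2e1 was the single member whose groups did not overlap at day 21: all LP rats were below all NP rats, as for 5.94% of tested probes, while 5.54% had all LP rats above. With 1 rat left out the count of members whose groups were apart became 4 without NP 4a, 3 without NP 5a, LP 6a or LP 7c, and 2 without NP 6a. Of all tested probes, 21.3% were then apart in either direction without NP 4a, 23.3% without NP 5a, 16.6% without LP 6a, 24.7% without LP 7c and 21.5% without NP 6a. The Cyp2e1 levels were -3.21, -3.33 and -2.57 in NP rats and -4.74, -4.79 and -4.75 in LP rats. The difference was -1.72, or 3.30-fold, with an SE of 1.86 and an adjusted p of 0.91 in limma. The SE is drawn from all 4 groups, and without the day 28 array of NP 4f it was 0.63 for the same difference, with an unadjusted p of 0.0238 and an adjusted p of 0.709 in limma.

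The 5 genes that went together had lower means in LP than in NP glands at day 21, with differences inside the spread between rats. Hrg differed by -2.08 (SE 1.27), Ttr by -1.73 (SE 1.62), Fga by -1.26 (SE 1.03), Fgb by -0.99 (SE 1.18) and Apoa1 by -0.64 (SE 0.80), with adjusted p between 0.861 and 0.927 in limma. These sizes changed with single rats and with the background correction: without LP 4a, Ttr differed by -0.36, and without NP 6a, Hrg differed by -1.17, Fga by -0.43, Fgb by -0.17 and Apoa1 by -0.26. With the normexp background, the differences were -0.98 for Ttr, -0.55 for Hrg, -0.46 for Fgb, -0.21 for Fga and -0.20 for Apoa1. The 95% interval for Ttr ran from -5.35 to 1.88 and that for Apoa1 from -2.43 to 1.16. NP 6a, the highest rat, and LP 4a, the lowest, belong to opposite diet groups on this day. Serpina1 was 0.65 higher (SE 0.57), Tf 0.12 higher (SE 0.34) and Apoa2 0.21 lower (SE 0.62) in means of LP glands, none with an adjusted p under 0.893 in limma. For Apoa2 no fold is given, since it was not well above background in any LP rat or in 2 NP rats.

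At day 28, no member passed an adjusted p of 0.05 between LP and NP glands in limma (0 of 10, and 0% of all tested probes). None had an unadjusted p under 0.05, against 8.07% of tested probes, and no member's groups were apart, while 12.4% of tested probes had all LP rats below and 4.41% all LP rats above. The median difference was -0.22 over the members and -0.05 over all tested probes, with 6 of 10 members lower. The 2 ends of the order, LP 6f and LP 7f, are of the same diet group, and without LP 7f the median of the members was 0.94, without LP 6f -0.87. Members whose groups were apart were 2 without LP 7f, and 1 without LP 6f or NP 6f, where 22.4%, 30.1% and 34.6% of tested probes were apart. Without NP 6f, 1 member had an unadjusted p under 0.05, against 14.8% of tested probes.

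The largest difference at day 28 was that of Cyp2e1, -3.18 (SE 1.86, adjusted p = 0.582 in limma), and it rested on 1 rat. Its levels were 4.96, -2.82 and -3.93 in NP rats and -4.07, -2.18 and -5.08 in LP rats. Without NP 4f, the NP mean was -3.38 against -3.78 in LP rats, and the difference was -0.40 (SE 0.71, adjusted p = 0.94 in limma). The next largest was Fga, 1.08 higher in the means of LP glands (SE 1.03, adjusted p = 0.681 in limma), with groups that overlapped. The Fga difference was 0.16 without LP 6f, 0.46 without NP 5f, 1.87 without LP 7f and 0.44 with the normexp background. Alb differed by -0.34 (95% interval from -1.65 to 0.97), Ttr by 0.28 (from -3.33 to 3.89), Tf by -0.26 (from -1.01 to 0.49) and Serpina1 by 0.56 (from -0.71 to 1.83). Among these, only the interval of Tf, with a log2 bound of -1.01, came close to holding no difference above a factor of 2.

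**Figure D4:**
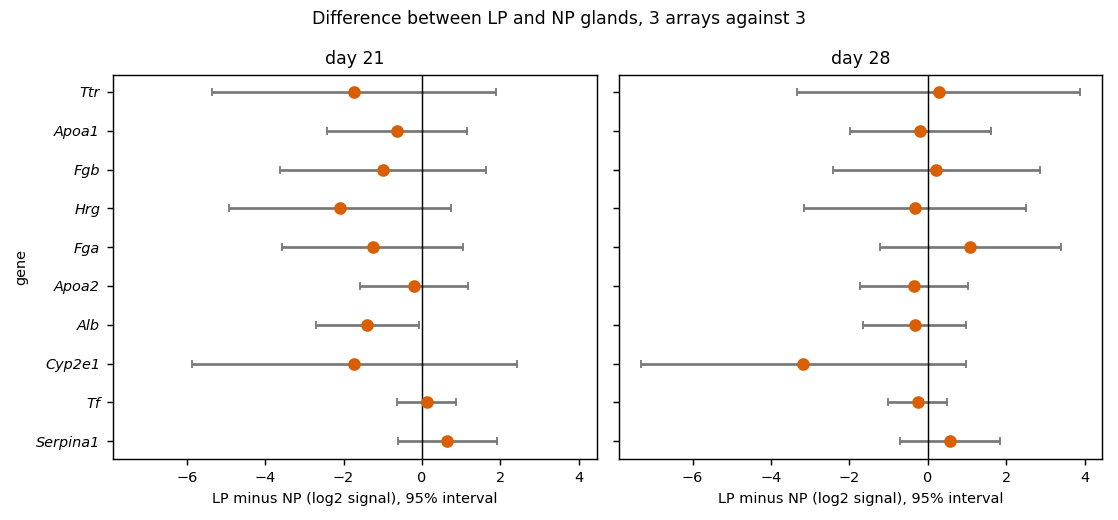
LP minus NP difference of each gene (x axis, log2 signal) at day 21 and day 28, with points for the limma estimate and bars for its 95% interval, from 3 arrays against 3. At day 21, 8 of the 10 points lie left of 0 and the interval of Alb alone leaves 0 out, and at day 28 all 10 intervals hold 0.

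The difference between diets did not itself differ between the days by a test that passed. For the change from day 21 to day 28 in the LP minus NP difference, limma gave an adjusted p under 0.05 for 0 of 10 members and 0% of tested probes, and 0 of 10 members and 2.26% of tested probes an unadjusted p under 0.05. Fga had the widest change, 2.35 (SE 1.46), followed by Ttr at 2.02 (SE 2.29), with an adjusted p of 1 for each in limma.

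From day 21 to day 28, 9 of 10 members had higher means in LP glands and 8 of 10 in NP glands. The median change was 1.57 in LP and 0.47 in NP glands, against -0.02 and 0.04 over all tested probes. No member passed an adjusted p of 0.05 in limma in either diet, where 0% of tested probes passed in LP and 0.25% in NP glands. Alb was the member with an unadjusted p under 0.05 in LP glands, against 10.1% of tested probes, and Apoa2 that in NP glands, against 12.8%. In LP glands, the Alb mean was -0.31 at day 21 and 1.87 at day 28, or 4.53-fold higher. This was 2.18 on the log2 scale (SE 0.59, limma's unadjusted p = 0.00405, its adjusted p = 0.315). In NP glands, the Alb means were 1.09 and 2.21, or 1.12 apart (SE 0.59, limma's adjusted p = 0.458), with groups that overlapped. The Apoa2 mean in NP glands was 1.46 higher on the log2 scale at day 28 (SE 0.62, adjusted p = 0.364 in limma), but 2 of the 3 rats at day 21 were not well above background, and with the normexp background it was 0.51 higher. Without LP 7f, 7 of the 10 members had an unadjusted p under 0.05 in LP glands in place of 1, and none an adjusted one, against 7.41% and 0% of tested probes, while the count was 2 without LP 7c, against 10.6%. In NP glands it was 0 without NP 4a or NP 4f, against 11.5% and 12.8%, and 2 without NP 6f, against 16%, and the median change was -0.29 without NP 4a and 1.35 without NP 6a.

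Other genes of liver were looked at from lists of symbols. Of 51 other plasma protein genes, 50 were matched to a probe, 45 were well above background on at least 1 array and 41 passed the filter. None of the 41 had an adjusted p under 0.05 in limma on either day. At day 21, 5 had an unadjusted p under 0.05 and were lower in LP glands, as were 2.26% of all tested probes, and none was higher, with a median difference of -0.22 and 29 of 41 lower. At day 28, 1 was lower with an unadjusted p under 0.05, against 6.09% of all tested probes, none higher, and the median was 0.10. Of the 41, 21 were highest on the array of NP 6a at day 21 and 20 on that of LP 6f at day 28, against 18.02% and 12.22% of all tested probes. Lowest on the array of LP 4a were 10, and on that of LP 7f 21, against 10.53% and 25.41% of all tested probes.

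The 10 brightest of this list had r between -0.43 and 0.43 with the mean of the 10 members, each set against the mean of its day, over the 12 arrays. Apoe, a lipoprotein ligand of macrophages and liver, had the highest mean level, 5.69, and differed by -0.61 (SE 0.18, unadjusted p = 0.00582, adjusted p = 0.581 in limma) at day 28. Rbp4, the retinol carrier that binds transthyretin in plasma, had a mean level of 5.54, Agt, the angiotensin precursor, 4.06, and the complement factor Cfb 3.03. Serpina3n, a protease inhibitor, Cp, the copper carrier ceruloplasmin, Vtn, vitronectin, and the apolipoproteins Apoc1 and Apoc4 followed, at mean levels of 2.02 to -0.69. Rbp4 was 0.63 higher in LP glands at day 21 (SE 0.33), with an adjusted p of 0.861 in limma.

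Of the 11 hepatocyte transcription factors, 8 were well above background on at least 1 array and 7 passed the filter. Foxa2, Foxa3 and Prox1 were on no array well above background. Hnf4a was well above background on 11 arrays with levels between -7.01 and -5.26, and Cebpa, which fat cells need, on all 12 with levels between -1.78 and -0.66. Foxa1, a factor of luminal epithelium as well as of liver, Nr1h4, the bile acid receptor, and Nr1i2, the pregnane receptor, were also found on all 12, Nr1i3, the constitutive androstane receptor, on 9 and Onecut1 on 4. Foxa1 was 0.95 higher (SE 0.35) and Onecut1 1.03 lower (SE 0.40) in LP glands at day 21. In limma, their unadjusted p was 0.0223 and 0.029, and the adjusted p was 0.861 for each. So 1 in each direction had an unadjusted p under 0.05, against 2.1% higher and 2.26% lower of all tested probes. At day 28, 0 of the 7 had one, against 1.98% higher and 6.09% lower. Of the 7, 0 were highest on the array of NP 6a and 1 on that of LP 6f, against 18.02% and 12.22% of all tested probes.

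Of the hepatocyte enzymes and transporters, 19 passed the filter, none with an adjusted p under 0.05 in limma on either day, and 1 in each direction had an unadjusted p under 0.05 on each day, against 2.26% lower and 2.1% higher of all tested probes at day 21 and 6.09% and 1.98% at day 28. The brightest 5 were Pck1, the first enzyme of gluconeogenesis, which fat cells use for glyceroneogenesis, Fah, of tyrosine breakdown, Arg1, arginase, Bhmt, of homocysteine methylation, and Adh1, alcohol dehydrogenase, at mean levels of 2.20, 1.09, 0.33, -0.53 and -3.75. Arg1 was 1.12 higher in LP glands at day 21 (SE 0.34, unadjusted p = 0.00743 and adjusted p = 0.861 in limma). Of the 19, 8 were highest on the array of NP 6a and 8 lowest on that of LP 4a at day 21, against 18.02% and 10.53% of all tested probes. At day 28, 7 were highest on the array of LP 6f and 10 lowest on that of LP 7f, against 12.22% and 25.41%.

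Genes whose levels were most like the mean of the members were sought by Pearson's r over the 12 arrays. They were sought among all 18285 tested probes with a symbol outside the 10 members. The members, but not the other genes, were set against the mean of the day. The 10 highest were Itih3, Serpinc1, Cyp2c23, Gc, Ahsg, F2, Slco1a4, Apoh, Slc16a3 and Cyp4f4, with r from 0.91 for Itih3 to 0.83 for Cyp4f4, and 6 of them, Itih3, Serpinc1, Gc, Ahsg, F2 and Apoh, were on the list of other plasma proteins. Serpinc1 encodes antithrombin, F2 prothrombin, Gc the vitamin D carrier, Ahsg fetuin A and Itih3 a chain of an inter-alpha-trypsin inhibitor. Serpinc1 ranged from -9.26 to -2.90 and was well above background on 10 arrays, F2 from -8.20 to -2.81 on 9, and Gc from -9.07 to -3.11 on 8. The points are the same 12 arrays for all genes, and 20 of the 18285 probes had r of at least 0.8.

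Markers of skeletal muscle, which lies beneath the fat pad, moved with some of these rats. All 7 muscle genes looked for were well above background on at least 3 arrays, 5 on all 12. The summed linear level of these 7, in units of the 75th percentile, ranged from 5.51 to 52.1 in NP and from 0.653 to 76.1 in LP rats at day 21, and from 2.23 to 7.29 in NP and from 0.666 to 63.7 in LP rats at day 28. It was 52.1 for NP 6a, 76.1 for LP 6a and 63.7 for LP 6f, and 0.653 for LP 4a and 1.25 for LP 7f. LP 4f, which was neither the highest nor the lowest rat of day 28 for any member, was at 0.666. LP 6a, with the highest muscle level of day 21, had Ttr at -2.69, Fga at -6.66 and Hrg at -6.78, below NP 6a and above LP 4a. It was the highest rat of its day for Serpina1 and the lowest for Apoa2 and Cyp2e1. The part of muscle in the levels of the plasma protein genes was not tested.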

How the data were processed

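RNA of 12 lumbar mammary glands was labelled with Cy3 and hybridised, 1 rat per array, to Agilent rat arrays, and the authors deposited the scanner intensities made with Agilent Feature Extraction 10.7.3.1, in which background was subtracted and trends within the array were corrected. The authors also deposited a table of ratios, the signal of each spot divided by the median of the array, which was used as an alternative. Probe positions were on rn4.

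The 4259 control spots and spots marked as outliers (259 to 766 per array) were left out. From each log2 intensity the array's 75th percentile was subtracted. Repeated spots of 1 probe were averaged, and 0.5 or more of them had to be well above background for the probe to pass on an array. The 23211 probes that passed on 3 or more arrays entered limma 3.58.1 (R 4.3.3), with the 4 groups in 1 fit by lmFit, eBayes moderation, two-sided p-values and Benjamini-Hochberg adjustment over all of them. The code was tested on simulated data.

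Permutation tests used 1e+05 orders of 12 arrays and all 720 orders within a day. Symbols were those of the array, or were matched through RefSeq. Genes named were all members, the brightest of the plasma protein list (10) and of the enzyme list (5), and the listed transcription factors. Also named were the 10 genes whose levels had the highest Pearson's r to the mean of the members' day-centred levels. Some items that these rules name are not reported here. The members and lists were chosen with earlier results of these data known. Nothing says that rats of a group came from separate litters, so p-values measure the spread between these rats. The number of arrays, 3 per group, limits the precision. Alternatives were other backgrounds, scalings, filters, variance models, blocks, slide row and leaving out each array. Analysis code also used Python 3.11.15, numpy 2.4.6 and pandas 2.3.3.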

Additional observations from a re-analysis of the deposited data

How the results depend on the processing

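The count of members with an adjusted p under 0.05 in limma was 0 in all 5 comparisons and under every alternative. Between LP and NP, the single members kept their direction in 168 of 175 alternative values at day 21 and in 159 of 175 at day 28. With the normexp background, the difference was 0.085 for Apoa2 at day 21, and 0.18 for Apoa1, 0.26 for Hrg and 0.22 for the median of the members at day 28. Same-numbered LP and NP arrays of a day deviated together with r of 0.09 to 0.13, against -0.2 to 0.21 for other numbers. Same-numbered arrays of the 2 days within a diet had r between -0.06 and 0.38 (4 of 6 above 0.1). Arrays of other numbers had r between -0.31 and 0.07 there. Each dam was fed 1 of the diets, so same-numbered NP and LP rats came from different dams. A block on the number therefore joins rats of different dams across the diets. Within a diet, the labels do not say whether rats of 1 number share a litter, so the main fit did not pair them. The day comparisons therefore ignore any such link. With a replicate block on the rats' numbers, the values at day 28 were 0.34 for Apoa1, 0.24 for Hrg and 0.29 for the median, and the members with an unadjusted p under 0.05 were 2 at day 21, 1 at day 28, 1 for the change in the difference, 0 for the days in NP and 3 in LP. With slide row as a covariate, Tf was -0.13 at day 21, and Ttr -0.78 and Fgb -0.19 at day 28. Only LP 4a and LP 4f share a slide row with the NP arrays, so this fit separates row from diet through those arrays. With probes well above background on all arrays, the median change in the difference was -0.087.

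For the days in NP glands, the members with an unadjusted p under 0.05 were 2 with normexp and with only the arrays compared, and 0 with quantile scaling, with probes detected on all arrays and with slide row. In LP glands they were 5 with normexp. The shares of all tested probes under these settings and under the replicate block are not given. These counts therefore cannot be read as particular to the members. Within day 21 and without the 2 arrays farthest from the median, 0 members correlated with Alb at an adjusted permutation p under 0.05, r of Tf with Alb was -0.28 within day 21, and r of Serpina1 was 0.053 without those arrays.

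Leaving out each array, the differences at day 21 ranged from -0.66 to 0.065 for Apoa2 and from -0.052 to 0.43 for Tf, and stayed below 0 for the other members with lower means. At day 28 they ranged from -0.64 to 0.04 for Alb, from -0.98 to 0.87 for Apoa1, from -0.95 to 0.39 for Apoa2, from -0.80 to 1.40 for Fgb, from -1.52 to 1.11 for Hrg, from -1.02 to 1.90 for Ttr and from -0.87 to 0.94 for the median. The change of Cyp2e1 between days in NP glands ranged from -0.34, without NP 4f, to 4.11. The median ranged from -0.071 to 1.42 for the change in the difference and from -0.29 to 1.35 for the days in NP. Over all alternatives, the day 28 differences ranged from 0.16 to 1.87 for Fga and from 0.053 to 1.001 for Serpina1. Members whose diet groups were apart ranged from 1 to 4 at day 21 and from 0 to 2 at day 28. Members with an unadjusted p under 0.05 ranged from 0 to 2 between diets at day 21, and from 0 to 1 at day 28 and for the change in the difference. For the days they ranged from 0 to 2 in NP and from 1 to 7 in LP. The cause of these changes was not tested. Signal over background limits Apoa2, Fga and Hrg most.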

Other observations

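The NP rat 4f at day 28 also had high levels of 2 further genes of liver, chosen after their values were seen. Hpd, of tyrosine breakdown, was at -1.31 in this rat and between -6.45 and -4.28 in the other 11, and Gulo, which makes vitamin C in rodents, was at -1.73 against -6.09 to -4.65. Fgb, at -5.09, was the second lowest of its day in the same rat. Of the 41 other plasma protein genes, 5 were highest and 13 lowest of the day on this array. Of the 19 hepatocyte enzymes and transporters, 4 were highest and 6 lowest, against 28.98% and 29.34% of all tested probes. Tnr, on none of the lists of liver genes, was also highest here, with a wider log2 gap to the next array (4.33) than Hpd (2.97) or Gulo (2.92).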
